A study of Mus musculus with 6 samples.

Results

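The miR-125 and miR-99/100 families were followed in LLC1 cells, a line from a mouse Lewis lung carcinoma, between flat culture on plastic and culture inside an extracellular matrix. Members were chosen by name alone: every mouse miRNA on the array whose name begins with miR-125a, miR-125b, miR-99a, miR-99b or miR-100. This gave 9 of the 566 mouse miRNAs on the array, namely 5 5p arms (mmu-miR-125a-5p, mmu-miR-125b-5p, mmu-miR-99a-5p, mmu-miR-99b-5p and mmu-miR-100-5p, written without the mouse prefix from here on) and 4 3p arms (miR-125a-3p, miR-125b-1-3p, miR-125b-2-3p, miR-99b-3p). The 2D group held 3 cultures of LLC1 cells grown as a monolayer, which served as the control. The lr-ECM 3D group held 3 cultures of the same line embedded for the same 48 h in 0.5 mg/ml of a laminin rich matrix mixture (Geltrex) above agarose. Both groups carried no genetic change or drug, and all values come from this single line. One Cy3-labelled total RNA sample of each culture was read on its own Agilent miRNA array. Every 2D array lay on one slide and every lr-ECM 3D array on another, each scanned on its own day, so slide, scan day and culture cannot be told apart in any value given here.

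A miRNA hairpin is cut into a duplex with a 5p and a 3p arm. Usually one arm is kept by the Argonaute protein, and it recognises target mRNAs mostly through its seed, the bases after the first one. The miR-125 family is the vertebrate relative of lin-4, the founding miRNA of worms, and has been studied in differentiation, apoptosis and blood cell cancers. The miR-99/100 family is known for targeting mTOR and the insulin-like growth factor receptor. In mammals the members lie in clusters that join a miR-99 or miR-100 hairpin, a let-7 hairpin and a miR-125 hairpin, so that unlike seeds can be made from one transcript.

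The mature 5p sequences are shown because the families are defined by their seeds and because the paralogs differ by few bases, which bears on what a probe can separate. RefSeq sequences (mouse assembly GRCm38.p6) were matched by name for all 9 members and for 466 of the 566 miRNAs on the array. Bases 2 to 8, the seed, are in capitals.
miR-125a-5p: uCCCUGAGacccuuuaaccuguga
miR-125b-5p: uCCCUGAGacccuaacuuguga
miR-351-5p: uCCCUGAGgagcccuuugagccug
miR-99a-5p: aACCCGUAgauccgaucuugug
miR-99b-5p: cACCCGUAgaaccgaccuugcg
miR-100-5p: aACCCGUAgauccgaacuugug
The seed CCCUGAG was found in 3 of the 466 miRNAs (0.644%), miR-125a-5p, miR-125b-5p and the X-linked miR-351-5p, which is no member by name. The seed ACCCGUA was also found in 3 of the 466 (0.644%), all of them members. MiR-125a-5p has 24 bases and miR-125b-5p 22, and they share their first 13 bases. With positions counted from 1 at the 5′ end, miR-100-5p differs from miR-99a-5p by the single substitution U16A. MiR-99b-5p differs from miR-99a-5p by A1C, U11A, U16C and U21C. How far a miRNA with so few differences binds to its paralog's probe was not tested.

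The 3p arms do not share a seed with each other or with the 5p arms, and are shown for that reason.
miR-125a-3p: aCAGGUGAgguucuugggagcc
miR-125b-1-3p: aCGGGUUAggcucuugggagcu
miR-125b-2-3p: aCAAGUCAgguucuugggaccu
miR-99b-3p: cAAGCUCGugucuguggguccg
The hairpins lie in 3 clusters on the plus strand of GRCm38.p6. On chromosome 17, within the gene Spaca6, miR-99b-5p lies at chr17:17830194-17830215, the let-7e hairpin's first mature sequence starts 172 bases after it, and miR-125a-5p lies 623 bases after it at chr17:17830817-17830840. On chromosome 9, within the non-coding host gene Mir100hg, miR-100-5p lies at chr9:41531437-41531458 and miR-125b-5p, from the hairpin Mir125b-1, 50.5 kb after it at chr9:41581940-41581961, with Mirlet7a-2 between them. On chromosome 16, outside any gene of the table, miR-99a-5p lies at chr16:77598940-77598961, let-7c 732 bases after it, and the second copy of miR-125b-5p, from Mir125b-2, 47.3 kb after it at chr16:77646279-77646300. Mature miR-125b-5p is the same from both copies, so its signal cannot be assigned to chromosome 9 or 16. MiR-125a-5p, miR-99a-5p, miR-99b-5p and miR-100-5p each come from 1 hairpin in this table.

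The arrays differed in brightness. Values of the 3 arrays of a culture are given throughout in the order of replicates 1, 2 and 3. Before scaling, the miRNA probes averaged 21.4, 5.03 and 40.4 linear units in 2D and 37.8 to 49.9 in lr-ECM 3D. A miRNA was taken as detected on an array where at least 50% of the spots of its probe were well above background. The lowest unscaled signal of a detected miRNA was alike on all arrays, between 22.1 and 29.7 units. After scaling, which gave every array the average of the 2D group, this limit lay at a log2 of 7.02 on the dim 2D replicate 2, 4.95 on 2D replicate 1 and 3.30 to 3.90 on the other 4 arrays. In all, 48 miRNAs were detected on 2D replicate 2, 75 and 101 on the other 2D arrays, and 120 to 151 on the lr-ECM 3D arrays. Of 18 marker miRNAs of other cell types, 15 were detected on no array, including all 6 of epithelium. The exceptions were miR-142a-3p on all 6 arrays and miR-142a-5p on 4, both typical of blood cells, and miR-206-3p of muscle on 1 lr-ECM 3D array. The summed scaled level of all 18, detected or not, was 319 to 706 in 2D and 292 to 308 in lr-ECM 3D. MiR-142a-3p was the brightest on every array, at a log2 of 7.96 to 8.95 in 2D and 7.85 to 7.94 in lr-ECM 3D. The part of these markers in the results below was not tested.

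MiR-125b-5p and miR-125a-5p were detected in both kinds of culture on every array, miR-99b-5p on all but the dimmest, and miR-100-5p and miR-125a-3p close to the limit. MiR-99a-5p and the 3p arms of miR-125b were detected on none. The number of members detected was 3, 2 and 5 in 2D and 6, 5 and 5 in lr-ECM 3D. On average 3.33 ± 1.53 and 5.33 ± 0.577 members were detected (SD, n = 3 each), and the groups touched at 5. Over all 566 mouse miRNAs, 75, 48 and 101 were detected in 2D and 151, 120 and 135 in lr-ECM 3D. The difference of 2 members had an exact two-sided permutation p of 0.3, where 3 arrays against 3 allow no p under 0.1. The fewest members were detected where the limit was highest, on 2D replicate 2, and the most where it was lowest, on lr-ECM 3D replicate 1, and the part of array brightness in this difference was not tested.

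**Figure D1:**
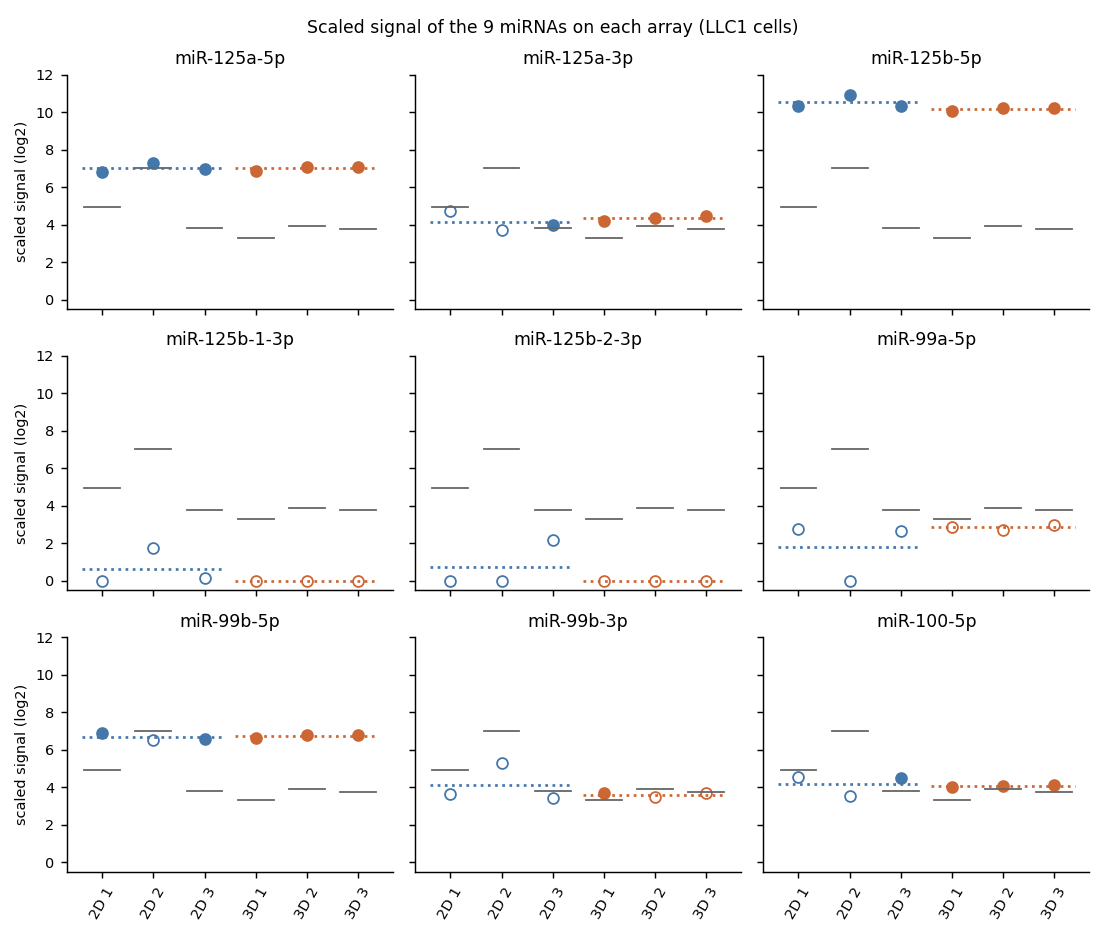
Scaled signal (log2, vertical axis) of each of the 9 members on the 3 2D and 3 lr-ECM 3D arrays (horizontal axis). Filled points were well above background and open points were not, grey bars give each array's lowest detected signal and dotted lines the group means. MiR-125b-5p stands at 10.06 to 10.91 on every array, far above the limits, whereas miR-99a-5p and the 3p arms of miR-125b stay under them throughout.

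Of the 9 members, 5 were detected on all 3 arrays of at least one group and could be tested across the cultures. None of these 5 was called different between lr-ECM 3D and 2D at an adjusted p under 0.05 and a fold of at least 2, against 14 of the 120 miRNAs tested (11.7%) in the same limma fit with Benjamini-Hochberg adjustment. Of all 120, 13 were called higher (10.8%) and 1 lower (0.833%) in lr-ECM 3D. In a fit of only the 48 miRNAs detected on all 6 arrays, limma called 0. MiR-125a-5p and miR-125b-5p are among these 48, so 11.7% is not a like share for them. Without 2D replicate 2, limma called 0 members against 32 of 121 miRNAs (26.4%). At an unadjusted limma p under 0.05 the count was 0 of 5 members, against 29 of 120 (24.2%). The 95% intervals of the log2 changes of miR-125b-5p and miR-125a-5p lay within 1 unit of 0, that is within a 2-fold change either way, under this scaling. The other 3 tested members entered the test through lr-ECM 3D, so their intervals set no bound on the fold. MiR-99b-5p was well above background on 2 of 3 2D arrays, and miR-100-5p and miR-125a-3p on 1 of 3. The estimates were above 0 for 2 members and below 0 for 3, beside 44 above and 76 below over all 120. Their median was -0.0035 beside -0.11 over all 120. Of the remaining 4 members only the detection is given. In such bulk samples, fewer cells with a miRNA and less of it per cell cannot be told apart.

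**Figure D2:**
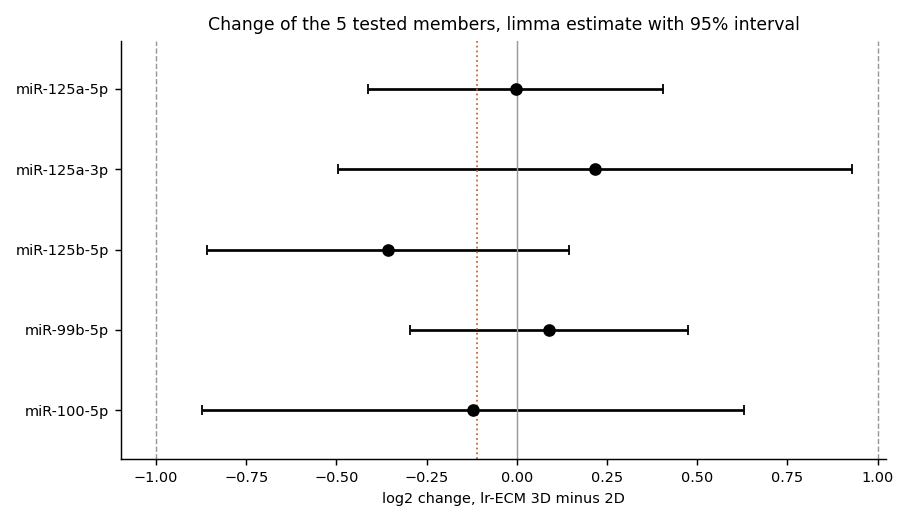
Log2 change of the 5 tested members, lr-ECM 3D minus 2D (horizontal axis), as limma estimates (points) with 95% intervals (bars). Dashed lines mark a 2-fold change, the solid line 0 and the dotted line the median of all 120 tested miRNAs, -0.11. Each interval spans 0. Those of miR-100-5p and miR-125a-3p rest on 2D values of which 2 of 3 were not well above background, and that of miR-99b-5p on 2D values of which 1 of 3 was not.

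MiR-125b-5p, known from brain and blood stem cells, stood 3.89 to 6.76 above the detection limit of every array on the log2 scale. The probe that represents it read 1213, 433 and 2318 linear units before scaling in 2D and 2395, 2036 and 1995 in lr-ECM 3D. After scaling the log2 signal was 10.30, 10.91 and 10.32 in 2D and 10.06, 10.19 and 10.20 in lr-ECM 3D. All 3 lr-ECM 3D arrays thus lay under all 3 2D arrays after scaling, and 2D replicate 2, the dimmest array before scaling, was the highest. Such a lack of overlap was seen in 1 of the 5 tested members and in 51 of the 120 tested miRNAs (42.5%), of which 27 were lower in lr-ECM 3D (22.5% of the 120). It was also seen in 18 of the 48 miRNAs detected on every array (37.5%).

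The means of miR-125b-5p were 10.51 ± 0.34 in 2D and 10.15 ± 0.08 in lr-ECM 3D (SD, n = 3 each). The log2 change was -0.36 (SE 0.20, 95% interval -0.86 to 0.14), with a limma adjusted p of 0.310. Its direction rests on the scaling: the change was 0.999 with no scaling, where the median of all tested miRNAs stood at 1.24, 0.49 with the deposited log2 values (median 0.76), 0.637 with normexp (median 0.41) and 0.265 with quantile normalization (median -0.08). Without 2D replicate 2 it shrank to -0.16. Its second probe was also detected on all 6 arrays and gave a change of -0.36, but with overlapping groups. After scaling, lr-ECM 3D replicate 1 lay above 2D replicate 3 on that probe. Spots of the first probe varied by 5.91% to 9.06% (coefficient of variation) within an array, and those of the second by 9.51% to 31.7%.

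MiR-125a-5p carries the same seed but is encoded in the chromosome 17 cluster. Its probe read 109, 34.9 and 222 linear units in 2D and 263, 234 and 229 in lr-ECM 3D. The scaled log2 signals were 6.82, 7.27 and 6.94 in 2D and 6.88, 7.07 and 7.07 in lr-ECM 3D, so that the lr-ECM 3D arrays lay inside the 2D range. On 2D replicate 2 the signal stood only 0.25 above the limit of that array. The log2 change was -0.0035 (SE 0.16, 95% interval -0.41 to 0.41, limma adjusted p = 0.992), and turned to 0.128 without 2D replicate 2, to 0.062 without lr-ECM 3D replicate 1, and to between 0.144 and 1.35 under 6 other ways of scaling or summarising the arrays. Its second probe, detected on 5 arrays, gave -0.0007. With the 75th percentile over detected probes the change of miR-125a-5p was 0.314, with an unadjusted limma p of 0.0104 and an adjusted limma p of 0.0592. That was its lowest adjusted p over the 21 alternatives.

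Because signals of different probes cannot be set against each other, the paralogs were compared by how their log2 ratio within an array differed between cultures, which no scaling factor for a whole array can alter. The log2 ratio of miR-125a-5p over miR-125b-5p was -3.48, -3.63 and -3.38 in 2D. In lr-ECM 3D it was -3.19, -3.12 and -3.12. All lr-ECM 3D ratios lay above all 2D ratios, with a difference of 0.35 between the means of -3.50 ± 0.13 and -3.14 ± 0.04 (SD, n = 3 each). The exact two-sided permutation p was 0.1, the smallest that 3 against 3 can give, and 0.4 after Benjamini-Hochberg adjustment over the 4 pairs tested.

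Of all 1128 pairs among the 48 miRNAs detected on every array, 339 (30.1%) had ratios that did not overlap between the groups, so a lack of overlap in 1 of the 4 pairs tested was close to that share. The 4 combinations of the miR-125a-5p and miR-125b-5p probes gave differences of 0.35 to 0.36, without overlap in 2 of the 4 and with exact permutation p-values of 0.1 or 0.2. Leaving out each array in turn gave 0.288 to 0.413, and total gene signal gave 0.540. Under normexp background correction the difference turned to -0.127 and under quantile normalization to -0.370, both with overlapping groups. A change in this ratio is an unequal change of the paralogs and does not say which of them moved.

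**Figure D3:**
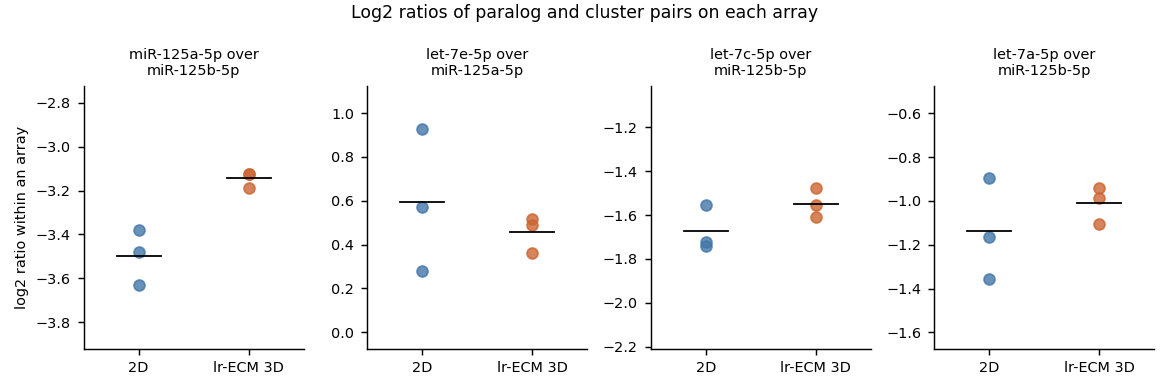
Log2 ratio of the named miRNAs within an array (vertical axis, the same length of 1.2 units in each panel) for 2D and lr-ECM 3D (horizontal axis), with points for arrays and lines for the means of 3. The ratio of miR-125a-5p over miR-125b-5p lies at -3.63 to -3.38 in 2D and at -3.19 to -3.12 in lr-ECM 3D, whereas the ratios to the let-7 partners overlap.

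MiR-99b-5p, which shares the chromosome 17 cluster with miR-125a-5p, was detected on 2 of 3 2D arrays and 3 of 3 lr-ECM 3D arrays. It read 115, 20.5 and 172 linear units in 2D and 221, 194 and 191 in lr-ECM 3D. The scaled log2 signals were 6.90, 6.51 and 6.57 in 2D and 6.63, 6.80 and 6.81 in lr-ECM 3D, with the lr-ECM 3D arrays inside the 2D range. The value on 2D replicate 2 was not well above background and lay 0.515 under the limit of that array. The log2 change was 0.09 (SE 0.15, 95% interval -0.30 to 0.47, limma adjusted p = 0.704), and -0.112 under quantile normalization. The second probe, likewise not detected on 2D replicate 2, gave 0.20.

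MiR-100-5p, from the chromosome 9 cluster, read 22.3, 2.62 and 41.6 linear units in 2D and 35.8, 29.6 and 30.01 in lr-ECM 3D. It was detected on 1 of 3 2D arrays and on 3 of 3 lr-ECM 3D arrays, where it stood only 0.19 to 0.70 above the limit on the log2 scale. The scaled log2 signals were 4.54, 3.54 and 4.52 in 2D and 4.0, 4.09 and 4.14 in lr-ECM 3D. The dim 2D replicate 2 was the lowest array and the other 2D arrays were the highest. The log2 change was -0.12 (SE 0.30, limma adjusted p = 0.771). Without 2D replicate 2 it was -0.45 with a limma adjusted p of 0.0126, still short of a 2-fold change, and over all 20 alternatives the adjusted p ran from 0.0126 to 1. It turned above 0 in 8 of the 20 alternatives, for example to 0.756 with the deposited log2 values, beside a median of 0.76 for all tested miRNAs. Its second probe was detected on no array.

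MiR-99a-5p, which differs from miR-100-5p by 1 base, was well above background in 0 of 118 spots. The probe that represents it read 6.47, -0.166 and 11.6 linear units in 2D and 16.7, 11.2 and 13.3 in lr-ECM 3D, under the lowest detected signal of every array, and no fold is given. Its second probe was detected on no array either.

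Among the 3p arms, miR-125a-3p was the one that could be tested. It read 25.3, 2.94 and 28.2 linear units in 2D and 41.1, 36.0 and 37.3 in lr-ECM 3D, and was detected on 1 of 3 2D arrays and 3 of 3 lr-ECM 3D arrays. The scaled log2 signals of 4.72, 3.70 and 3.96 in 2D spanned those of 4.20, 4.37 and 4.46 in lr-ECM 3D. The log2 change was 0.22 (SE 0.29, 95% interval -0.50 to 0.93, limma adjusted p = 0.620), and stood at 0.0048 without 2D replicate 2 and at 0.51 without 2D replicate 1, and just under 0 with quantile normalization (-0.011) and normexp (-0.026). It was 1.18 with the deposited values (median of all tested miRNAs 0.76), 1.57 with no scaling (median 1.24) and 2.58 with total gene signal (median 0.66), the last with a limma adjusted p of 0.117, where the adjusted p over all 20 alternatives ran from 0.117 to 0.998. Of its other probes, those detected on 1 and 2 arrays gave changes of 0.02 and -0.09, and the fourth was detected on no array. Both arms of the miR-125a hairpin were thus detected in lr-ECM 3D on every array.

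MiR-99b-3p was detected on lr-ECM 3D replicate 1 alone, where it read 29.1 linear units against 8.91 to 21.7 on the other 5 arrays, with 5 of 119 spots of its probes well above background in all. The arms miR-125b-1-3p and miR-125b-2-3p had 0 of 119 such spots each and read at most 1.98 and 8.14 linear units. They are the arms that could tell the Mir125b-1 and Mir125b-2 copies apart, and at these signals neither copy could be followed. The arms miR-99a-3p and miR-100-3p were not among the miRNAs on the array.

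The let-7 miRNAs encoded between the members are a tumour suppressor family that targets Ras and Hmga2. In the chromosome 17 cluster, let-7e-5p had scaled log2 signals of 7.10, 8.20 and 7.51 in 2D and 7.24, 7.59 and 7.57 in lr-ECM 3D. Its log2 change was -0.14 (SE 0.31, limma adjusted p = 0.748), beside -0.0035 for miR-125a-5p and 0.09 for miR-99b-5p of the same cluster. The changes of let-7a-5p and let-7c-5p, partners on chromosomes 9 and 16 that are also made from other hairpins, were both -0.23 (limma adjusted p = 0.517 and 0.436). Of these 3 partners limma called 0, against 11.7% of all tested miRNAs, and their median was -0.23 beside -0.11 over all 120 tested miRNAs. All 3 were detected on all 6 arrays, and the fit of the 48 such miRNAs called 0 as well.

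The other 6 let-7 family miRNAs (let-7b, let-7d, let-7f, let-7g, let-7i and miR-98, 5p arms) had 0 calls as well, with a median change of -0.31 and limma adjusted p-values of 0.310 to 0.439. Groups did not overlap for 1 of the 6, let-7i-5p, against 42.5% of all tested miRNAs. The passenger arms let-7a-1-3p and let-7c-1-3p and the seed relative miR-351-5p were detected on no array.

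Within arrays, the log2 ratio of let-7e-5p over miR-125a-5p differed by -0.14 between lr-ECM 3D and 2D (exact permutation p = 0.7). For let-7c-5p over miR-125b-5p the difference was 0.12 (exact permutation p = 0.3), and for let-7a-5p over miR-125b-5p it was 0.13 (exact permutation p = 0.5). The groups overlapped in each of these 3 pairs, and the adjusted values over the 4 pairs tested were 0.7, 0.6 and 0.667. Each of the 3 differences turned its sign under quantile normalization, and with total gene signal that of let-7e-5p over miR-125a-5p was -0.325. Of 13 pairs planned, 9 held a miRNA that was not detected on every array.

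The pairs with miR-99b-5p could be followed over the 5 arrays other than 2D replicate 2. The ratio of miR-99b-5p over let-7e-5p differed by -0.15 and that over miR-125a-5p by -0.12, each with an exact permutation p of 0.8 where 2 against 3 allows no less than 0.2. The ratio of miR-99b-5p over miR-125a-5p was close to constant within lr-ECM 3D, at -0.26 ± 0.01 (SD, n = 3), and was 0.08 and -0.37 on 2D replicates 1 and 3. Whether the spread differed between the cultures was not tested.

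The profile over the 6 arrays was compared between miRNAs as the root mean square difference of log2 signals, each centred on its own mean, among the 46 other miRNAs detected on every array. Nearest to miR-125b-5p were miR-130a-3p (0.0536), miR-34b-5p (0.0564) and miR-199a-5p (0.0570). MiR-125a-5p was farther from miR-125b-5p, at 0.193. The cluster partners of miR-125b-5p, let-7c-5p and let-7a-5p, stood at 0.0939 and 0.156 from it. Nearest to the mean of miR-125a-5p and miR-125b-5p were miR-20a-5p (0.0401), let-7c-5p (0.0527) and miR-27a-3p (0.0611). These profiles share the scaling of each array, above all the high scaled values of 2D replicate 2.

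**Figure D4:**
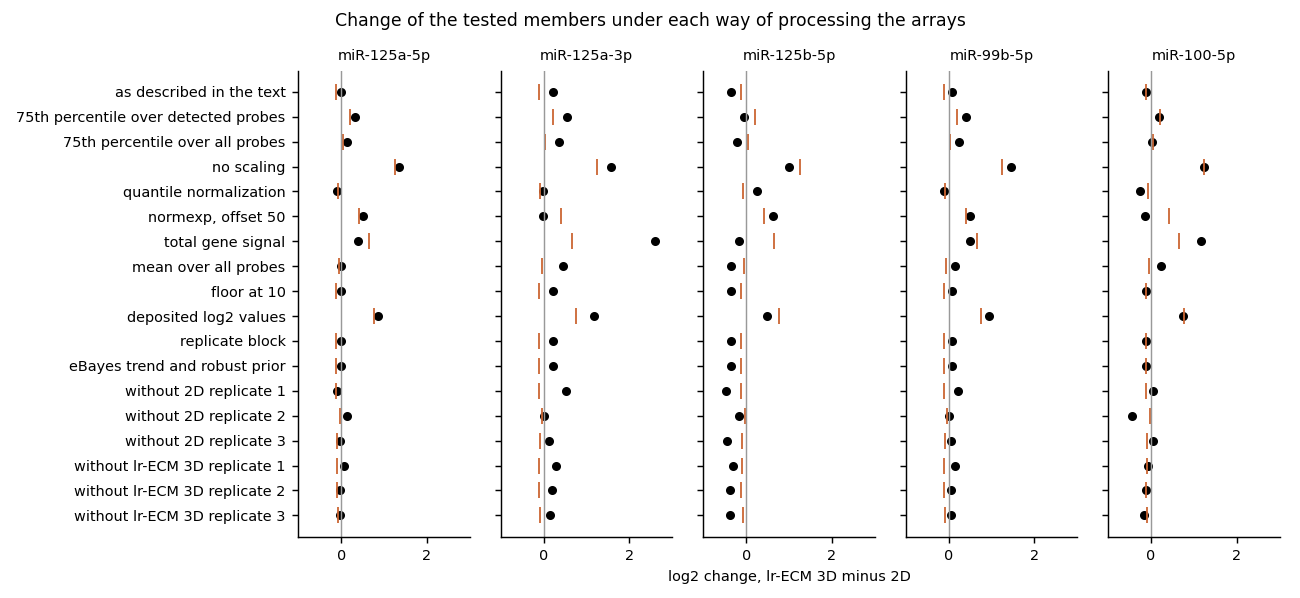
Log2 change of each tested member, lr-ECM 3D minus 2D (horizontal axis), under each way of processing the arrays (vertical axis), as black points with the median of all tested miRNAs as orange ticks. With no scaling all 5 members and the median (1.24) stand well above 0, whereas with total gene signal miR-125a-3p stands at 2.58 against a median of 0.66.

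The changes of the members depended on the processing. With no scaling all 5 estimates were above 0 and the median of all tested miRNAs was at 1.24, and relative to that median miR-125b-5p stood lower and miR-125a-3p higher. Over all alternatives run, the change of miR-125a-5p relative to the median lay between -0.28 and 0.27 and that of miR-99b-5p between -0.17 and 0.32. The ranges were wider for miR-125b-5p (-0.81 to 0.35), miR-100-5p (-0.56 to 0.50) and miR-125a-3p (-0.43 to 1.93). No member was called under any of the 21 alternatives. The labels number the cultures of each group as replicates, and precision is limited throughout by having 3 arrays a group.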

How the data were processed

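LLC1 cells were profiled on 6 Agilent one-colour mouse miRNA arrays, 3 of 2D and 3 of lr-ECM 3D culture. The deposited spot intensities are on a linear scale and were extracted by the authors with Agilent Feature Extraction 10.7.3.1, background-subtracted and not normalized between arrays. Other deposited columns hold flags for outliers and for spots well above background. The deposited series table holds log2 values made by the authors. Each of its columns equalled the log2 of the floored intensities plus a constant for the array (largest departure 0.049), a scale found from the values. Its column medians were 0.0835, 0.329 and 0.794 in 2D and 0.816, -0.0281 and -0.0385 in lr-ECM 3D, and all column means were 1.79. Intensities were below 0 for 41.2% to 52.2% of spots.

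Control spots and 190 to 369 outlier spots per array were left out of 12493, and spots were averaged into 1712 miRNA probes. Each array was multiplied by the factor that set its mean to that of the 2D arrays (1.04, 4.43 and 0.552 in 2D, 0.447, 0.575 and 0.589 in lr-ECM 3D), floored at 1 and converted to log2. A miRNA was represented by its brightest probe. The 120 miRNAs detected (at least 50% of spots well above background) on every array of at least one culture entered limma 3.58.1 (R 4.3.3). Benjamini-Hochberg adjustment ran over all 120. The fit had first been run on simulated normal values, which had no floor, detection limit or dim array and so do not test those traits. Counts per array and ratios were compared by exact permutation in SciPy 1.17.1. Calls were made at a fold of 2 or more with an adjusted p under 0.05.

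The members and lists were chosen with earlier results of these data known. Named miRNAs were all members, their cluster partners, other let-7 miRNAs, seed relatives, and the 3 miRNAs nearest in profile. Alternatives covered the scaling, background correction (normexp on the median pixel signal, offset 50), probe summary, floor, filter, deposited values, left-out arrays, a replicate block, the eBayes prior and the methods' t-test.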

Additional observations from a re-analysis of the deposited data

How the results depend on the processing

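The count of 0 called members held under all 21 alternatives, and the difference in detected members ran from 1.33 to 2.83 when each array was left out. Calls over all tested miRNAs were 14 as described and 25 with the 75th percentile over all probes, 27 with no scaling, 24 with quantile normalization (19 higher, 5 lower), 26 with total gene signal, 27 with the deposited values, 32 with no filter (28 higher, 4 lower), 0 among the 48 miRNAs detected on all 6 arrays, and 12 to 32 when each array was left out, the 32 (of 121, 26.4%) without 2D replicate 2. The direction of a member turned as follows. With the 75th percentile over detected probes miR-100-5p was at 0.195 and miR-125a-5p at 0.314, and over all probes at 0.0253 and 0.144. With no scaling they were at 1.24 and 1.35 and miR-125b-5p at 0.999; with total gene signal at 1.15 and 0.380; with the deposited values at 0.756 and 0.849 and miR-125b-5p at 0.490. With the mean over all probes miR-100-5p was at 0.224. With quantile normalization miR-125b-5p was at 0.265, miR-125a-3p at -0.011 and miR-99b-5p at -0.112, and with normexp miR-125b-5p was at 0.637, miR-125a-5p at 0.510 and miR-125a-3p at -0.026. The median of all tested miRNAs was -0.11 as described, 0.21 and 0.04 with the 75th percentiles, 1.24 with no scaling, -0.08 with quantile normalization, 0.41 with normexp, 0.66 with total gene signal and 0.76 with the deposited values. With each array left out, miR-100-5p ran from -0.45 to 0.047, miR-125a-5p from -0.10 to 0.13, miR-125b-5p from -0.46 to -0.16, miR-125a-3p from 0.0048 to 0.51 and miR-99b-5p from 0.012 to 0.21. Differences in ratio turned under normexp to -0.127 (miR-125a-5p over miR-125b-5p), 0.0169 (let-7e-5p over miR-125a-5p) and -0.0374 (let-7c-5p over miR-125b-5p), and under quantile normalization to -0.370, 0.0241 and -0.291, with -0.237 for let-7a-5p over miR-125b-5p. With each array left out they ran from 0.288 to 0.413, from -0.293 to 0.0319 (the latter without 2D replicate 2), from 0.0895 to 0.183 and, for let-7a-5p, from 0.0175 to 0.249. The cause of these changes was not tested. Deviations of arrays with the same replicate number correlated at -0.32, -0.37 and 0.16. With 3 arrays a group these values cannot settle whether the numbers pair the cultures. With the replicate number as a block, 12 miRNAs and 0 members were called. A block for slide or scan day was not run, since 0 of the 2 slides held both groups. The ratios over 5 arrays and the other probe combinations were chosen after seeing the data. Signals under the limit of 2D replicate 2 bound what the 2D group can show.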
